A study of Mus musculus with 16 samples.

Results

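The simple epithelial keratins are the intermediate filament proteins of single-layered epithelia, and 6 of their genes were followed here: Krt7, Krt8, Krt18, Krt19, Krt20 and Krt23. Every array probe carrying one of these names was taken, which gave 8 probes for the 6 genes among 41174 probes and 28034 gene names. Krt7 and Krt8 had a pair of probes each. All 8 probes entered the test of 35781 probes, and for a gene with a pair of probes the one brighter on average over the samples stands for the gene unless the second is named.

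Keratins assemble as pairs of one acidic (type I) and one basic (type II) chain. Krt8 (type II) and Krt18 (type I) are the pair of hepatocytes and are also made in bile ducts, where Krt7 (type II) and Krt19 (type I) are added and serve as the usual markers of duct cells. Krt20 (type I) is best known from intestinal and gastric epithelium and from urothelium, and Krt23 is a type I keratin less studied in the liver. Keratin filaments protect epithelial cells from mechanical and toxic stress, and in mice fed DDC, 3,5-diethoxycarbonyl-1,4-dihydrocollidine, hepatocytes are known to make more Krt8 and Krt18 and to form keratin aggregates called Mallory-Denk bodies. DDC is a porphyrin-raising toxicant that injures bile ducts and sets off a ductular reaction.

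Cells were dissociated from livers of c129/S3 mice and sorted on binding of the duct-cell antibody MIC1-1C3 (M) and on CD133 (133), the surface protein of the gene Prom1. There were 4 groups: M+133+ cells after DDC (4 samples), M-133- cells after DDC (4 samples), M+133+ cells of untreated livers (4 samples) and M-133- cells of untreated livers (2 samples). DDC was given at 0.1% of the diet by weight for 2 weeks, and all mice otherwise ate the same Purina diet. The series design calls the samples biological replicates, and 1 sample of each untreated group was also run on a repeat array. The age and sex of the mice are not given in the sources used here. M-133- is defined by the lack of both antigens, so it can hold several cell types.

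Levels are given as log2 of the background-subtracted intensity relative to the 75th percentile of the same array, so a level of 0 is that percentile and a difference of 1 is a doubling in signal. Levels of different probes are not comparable with each other. The 75th percentile intensity ranged between 581.6 and 2680.9, and the arrays had 59.7% to 77.0% of their probes called well above background by the scanner software. The 16 arrays lay on 5 slides, and no slide held both sorts from DDC livers. Prom1 was at 1.55 ± 0.66 in M+133+ DDC cells, -6.39 ± 2.16 in M-133- DDC cells, 1.61 ± 0.31 in M+133+ untreated cells (SD, n = 4 each) and -7.99 ± 0.42 in M-133- untreated cells (SD, n = 2). Every M+133+ sample was above every M-133- sample, as labelled. M-133- DDC sample 2 had the highest Prom1 level of its group, -3.44, and all 8 bile duct markers of the marker list were higher in M+133+ than in M-133- cells of untreated livers by the same test.

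The probes of Krt19, Krt7 and Krt23 are shown because the sort and DDC differences below rest on what these 60 bases bind. They lie, on mouse build mm9 as the array design gives it, at chr11:100002392-100002451 (Krt19) and chr11:99339393-99339452 (Krt23), both on the minus strand. The Krt7 probe that was brighter on average over the samples lies at chr15:101253718-101253777 on the plus strand.
Krt19 probe: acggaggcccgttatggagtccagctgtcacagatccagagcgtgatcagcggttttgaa
Krt7 probe: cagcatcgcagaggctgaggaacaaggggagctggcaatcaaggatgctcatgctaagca
Krt23 probe: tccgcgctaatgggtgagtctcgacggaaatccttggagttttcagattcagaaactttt

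Krt8 and Krt18 are neighbouring keratin genes on chromosome 15 and are transcribed on opposite strands. Krt20 and Krt23 are neighbours on chromosome 11. Promoter windows of 300 bases from RefSeq (build GRCm38.p6, 250 bases before the gene start and 50 after) matched 5 of the 6 members by symbol, all but Krt19. The windows of Krt8, Krt18 and Krt23 are shown because these 3 genes changed together in M-133- cells, and that of Krt20 because it had the largest DDC difference in M+133+ cells, each over 250 bases before the start and 25 after it. Capitals mark TATAAA (the TATA box) and TGACNNNGC (the antioxidant response element core), searched on both strands.
Krt8 promoter, chr15:102004318-102004592, minus strand: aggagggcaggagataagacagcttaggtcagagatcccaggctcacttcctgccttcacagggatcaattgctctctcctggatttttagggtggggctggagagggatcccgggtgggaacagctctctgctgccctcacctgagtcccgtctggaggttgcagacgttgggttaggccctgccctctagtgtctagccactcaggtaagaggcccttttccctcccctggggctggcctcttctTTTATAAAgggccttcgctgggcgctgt
Krt18 promoter, chr15:102027966-102028240, plus strand: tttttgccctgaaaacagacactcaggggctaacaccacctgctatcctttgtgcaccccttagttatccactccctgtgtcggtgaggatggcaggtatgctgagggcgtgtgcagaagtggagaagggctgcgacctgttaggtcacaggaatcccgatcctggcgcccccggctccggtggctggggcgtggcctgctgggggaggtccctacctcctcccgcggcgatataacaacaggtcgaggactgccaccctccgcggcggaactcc
Krt23 promoter, chr11:99493096-99493370, minus strand: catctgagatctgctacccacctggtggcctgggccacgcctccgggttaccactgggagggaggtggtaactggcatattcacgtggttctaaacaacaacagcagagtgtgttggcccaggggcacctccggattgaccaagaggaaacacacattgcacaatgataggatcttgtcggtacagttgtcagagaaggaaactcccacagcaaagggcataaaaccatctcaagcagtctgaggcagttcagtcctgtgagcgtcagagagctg
Krt20 promoter, chr11:99438129-99438403, minus strand: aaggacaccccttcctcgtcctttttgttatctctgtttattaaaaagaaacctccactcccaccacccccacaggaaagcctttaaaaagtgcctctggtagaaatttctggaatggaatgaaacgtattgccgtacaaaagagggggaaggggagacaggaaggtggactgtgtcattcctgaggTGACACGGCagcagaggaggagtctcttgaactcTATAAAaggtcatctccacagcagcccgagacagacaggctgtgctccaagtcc

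TATAAA was present in 13.6% of all 32851 promoter windows of this length, and here in Krt8 on both strands in overlapping positions at the annotated start, and in Krt20 at position -29. TGACNNNGC was present in 12.4% of all windows and here in Krt20 alone, at position -63. GGGCGG (the GC box), in 35.7% of all windows, occurred 4 times in the Krt7 window, which is not shown. TGAGTCA (an AP-1 site), in 5.20% of all windows, was in no member's window. The 3 genes that changed together in M-133- cells thus had none of these 4 motifs in common in this window.

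In untreated livers, 5 of the 6 keratins were higher in M+133+ than in M-133- cells in a limma fit across all probes with Benjamini-Hochberg adjustment (adjusted p under 0.05). Of all 35781 probes, 7.71% were called in this comparison and 3.21% were called higher. The members' median log2 difference was 3.70, against -0.08 over all probes. Krt20 was the member that was not called. The groups did not overlap for the same 5 genes, against 33% of all probes.

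Krt19, the type I duct keratin, had levels of 4.89, 4.80, 4.11 and 3.52 in M+133+ untreated cells, against -4.85 and -3.50 in M-133- untreated cells. Every M+133+ sample lay far above both M-133- samples. The log2 difference was 8.51 (SE 0.80, limma adjusted p = 2.1e-05). On the slides that held both sorts, it was 9.32 and 6.11. Both values rest on repeat arrays of the same M-133- sample, untreated sample 2.

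Krt7, its type II partner in ducts, had levels of 1.76, 2.32, 1.16 and 0.81 in M+133+ untreated cells, against -3.16 and -2.18 in M-133- untreated cells. The groups were apart on this probe by a log2 difference of 4.18 (SE 0.72, limma adjusted p = 0.0023), and by 4.96 and 1.88 within slides. Both within-slide values rest on M-133- untreated sample 2, at -3.30 and -1.07 on its repeat arrays. The second Krt7 probe gave a larger difference of 10.01 (SE 0.71, limma adjusted p = 3.0e-06). Both probes therefore gave the same direction and differed in size, and the second was well above background on 1 of the 3 arrays of M-133- untreated cells. Its mean was the higher in M+133+ untreated cells, at 3.24 against 1.51 for the main probe. In M-133- untreated cells it was the lower, at -6.78 against -2.67.

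Krt8, the type II keratin of the hepatocyte pair, had levels of 5.68, 5.63, 5.66 and 5.75 in M+133+ untreated cells, against 2.58 and 2.36 in M-133- untreated cells. The M+133+ samples lay close together on this probe, with an SD of 0.05, against 0.29 on the second Krt8 probe. The difference was 3.21 (SE 0.38, limma adjusted p = 0.00016), and the second Krt8 probe gave 3.40. A Krt8 pseudogene is annotated in the mouse, and whether its transcripts bind these probes was not tested.

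Krt18, the partner of Krt8, had levels of 6.07, 5.80, 5.89 and 6.33 in M+133+ untreated cells, against 4.52 and 3.96 in M-133- untreated cells. This was the smallest called difference among the members, 1.78 (SE 0.28, limma adjusted p = 0.0013). It missed the threshold with each array scaled to its median (limma adjusted p = 0.0501) and without the intensity trend (limma adjusted p = 0.0618).

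Krt23 had levels of 3.86, 3.84, 3.78 and 4.49 in M+133+ untreated cells, against -1.44 and -6.02 in M-133- untreated cells. The M-133- samples differed widely, and sample 2 was well above background on only 1 of its 2 arrays, with levels of -5.49 and -6.54. The difference was 7.72 (SE 1.07, limma adjusted p = 0.00051), or 5.44 without M-133- untreated sample 2.

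Krt20 had levels of -5.94, -0.64, -5.10 and -4.99 in M+133+ untreated cells, against -5.67 and -4.79 in M-133- untreated cells. The groups overlapped, with M+133+ sample 2 alone well above the rest, and the log2 difference of 1.06 (SE 1.55) had a limma adjusted p of 0.82. The 95% interval of the difference reached -2.25 and 4.38.

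Mesothelial cells also make keratins of this family. Of 7 mesothelial markers 1, Msln (mesothelin, well above background on 1 of 3 M-133- untreated arrays), was higher in M+133+ than in M-133- cells, by a log2 difference of 7.03 in untreated livers and 9.54 after DDC, and the summed level was 3.66 to 4.42 in M+133+ DDC, -2.48 to 1.19 in M-133- DDC, 2.15 to 3.28 in M+133+ untreated and -1.34 to -0.66 in M-133- untreated cells. Markers of hepatocytes, endothelium and stellate cells ran the other way between the sorts. In M+133+ untreated cells 8 of 8 endothelial, 7 of 9 hepatocyte and 1 of 7 stellate cell markers were lower than in M-133- untreated cells, with median log2 differences of -6.05, -6.98 and -2.19. After DDC 7 of 8, 8 of 9 and 7 of 7 were lower, with medians of -5.22, -6.17 and -7.71. Of 7 macrophage markers 1, Csf1r, was called between the sorts in untreated livers, higher in M+133+ cells by 5.92. The other 6 were not called, and the macrophage list's median ran the other way, at -3.66. Of 5 tuft cell markers 1, Avil, was called after DDC, higher in M+133+ cells by 5.28. Avil was well above background on 2 of 4 M-133- DDC arrays, and the tuft cell list's median was 0.97. The summed hepatocyte level was 6.04 to 6.90 in M+133+ DDC, 7.95 to 8.75 in M-133- DDC, 5.66 to 6.39 in M+133+ untreated and 8.34 to 9.60 in M-133- untreated cells. In M+133+ cells this sum was mostly the signal of Alb (albumin). Alb alone was at 5.72 to 6.80 in M+133+ DDC and 5.57 to 6.27 in M+133+ untreated cells. The summed endothelial level was 0.42 to 2.22 in M+133+ DDC, 3.80 to 6.69 in M-133- DDC, 1.33 to 3.71 in M+133+ untreated and 8.24 to 9.01 in M-133- untreated cells. The part of any of these markers in the keratin differences was not tested.

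**Figure D1:**
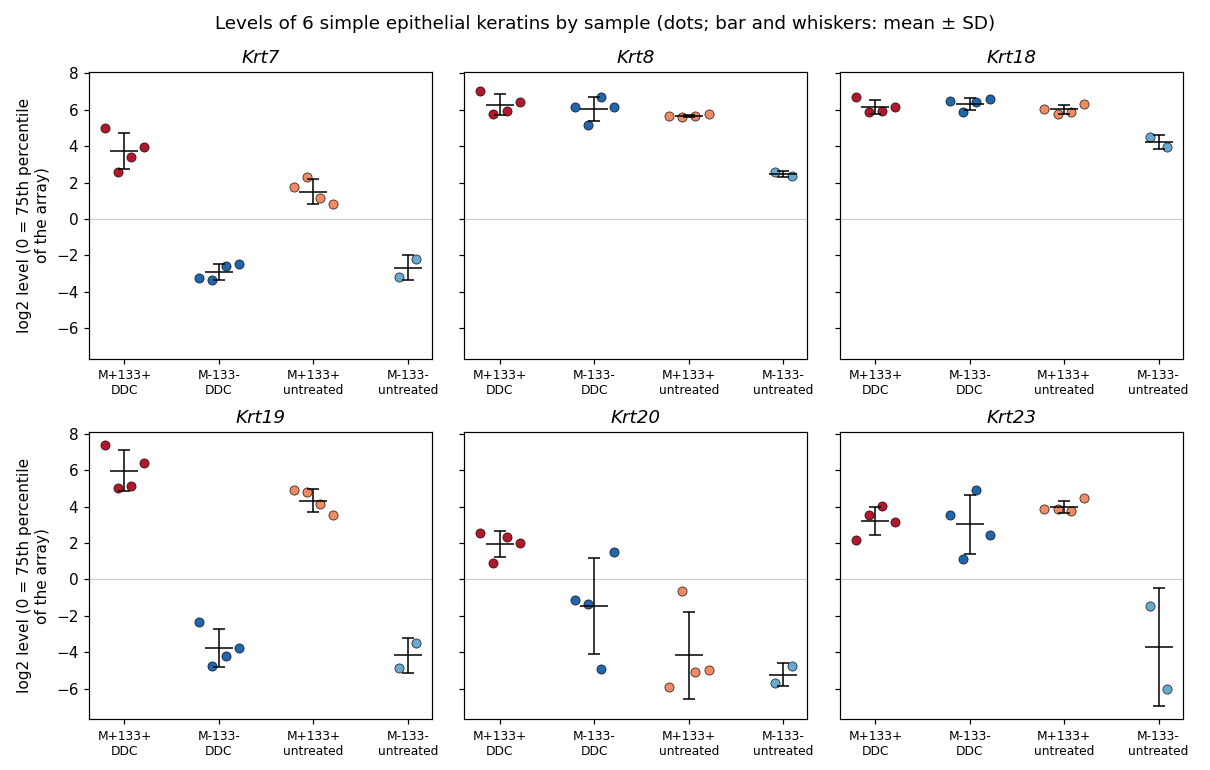
Each dot is 1 sample, its log2 level relative to the 75th percentile of its array on the vertical axis, for the 6 keratins in M+133+ DDC, M-133- DDC, M+133+ untreated and M-133- untreated cells, with mean and SD. Krt7 and Krt19 are high in both M+133+ groups only, whereas Krt8, Krt18 and Krt23 are lower in M-133- cells of untreated livers than in any other group.

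After DDC, 2 of the 6 keratins, Krt7 and Krt19, were higher in M+133+ than in M-133- cells (adjusted p under 0.05), against 11.8% of all probes called and 6.15% called higher. Krt8, Krt18, Krt20 and Krt23 were not called, and their ranges overlapped between the sorts. The median log2 difference over all probes was 0.34 in this comparison, so a member's difference is read beside that shift.

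Krt19 levels were 7.37, 5.01, 5.14 and 6.38 in M+133+ DDC cells, against -2.32, -4.74, -4.23 and -3.77 in M-133- DDC cells. The groups stood apart by a log2 difference of 9.74 (SE 0.65, limma adjusted p = 6.0e-07). With slide as a fixed block it was 9.18 (limma adjusted p = 0.0013), and no within-slide value exists, since no slide held both groups.

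Krt7 levels were 4.98, 2.61, 3.42 and 3.97 in M+133+ DDC cells, against -3.26, -3.33, -2.59 and -2.48 in M-133- DDC cells. The difference was 6.66 (SE 0.59, limma adjusted p = 6.7e-06), and 5.69 with slide as a fixed block. The second Krt7 probe was not well above background on any array of M-133- DDC cells, and its signal was at least 2268-fold higher in M+133+ DDC cells (limma adjusted p = 1.2e-07). That bound sets the bright mean against the lowest signal well above background on each dim array, or the probe's own value where higher.

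Krt8 levels were 7.04, 5.77, 5.95 and 6.42 in M+133+ DDC cells, against 6.16, 5.16, 6.70 and 6.17 in M-133- DDC cells. The ranges overlapped, with M+133+ sample 1 above and M-133- sample 2 below all samples of the other sort, and the log2 difference was 0.25, with a 95% interval with ends at -0.41 and 0.91. The sign turned with array medians, to -0.46, and with slide as a fixed block, to -0.22.

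Krt18 levels were 6.72, 5.88, 5.93 and 6.13 in M+133+ DDC cells, against 6.51, 5.86, 6.42 and 6.58 in M-133- DDC cells. The 95% interval of the difference, with ends at -0.67 and 0.32, held no change as large as the untreated difference of 1.78. The difference itself was -0.18, and it was -0.89 with array medians and 0.04 with slide as a fixed block. For Krt23 the levels were 2.14, 3.53, 4.01 and 3.13 in M+133+ DDC cells, against 3.54, 1.13, 4.92 and 2.46 in M-133- DDC cells. M-133- samples 2 and 3 were the lowest and highest of all 8, and the wide 95% interval, with ends at -1.68 and 2.06, leaves the size of a sort difference in Krt23 poorly fixed. The Krt23 difference of 0.19 turned to -0.52 with array medians and was 1.52 with slide as a fixed block.

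Krt20 levels were 2.54, 0.91, 2.30 and 2.00 in M+133+ DDC cells, against -1.14, -1.33, -4.94 and 1.52 in M-133- DDC cells. M-133- sample 4 lay within the M+133+ range and sample 3 far below it. The log2 difference of 3.42 (SE 1.27) had a limma adjusted p of 0.10. It passed the threshold without M-133- DDC sample 4 (4.41, limma adjusted p = 0.0338) and with normexp background correction (2.99, limma adjusted p = 0.0472), whereas with slide as a fixed block it was 1.44.

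**Figure D2:**
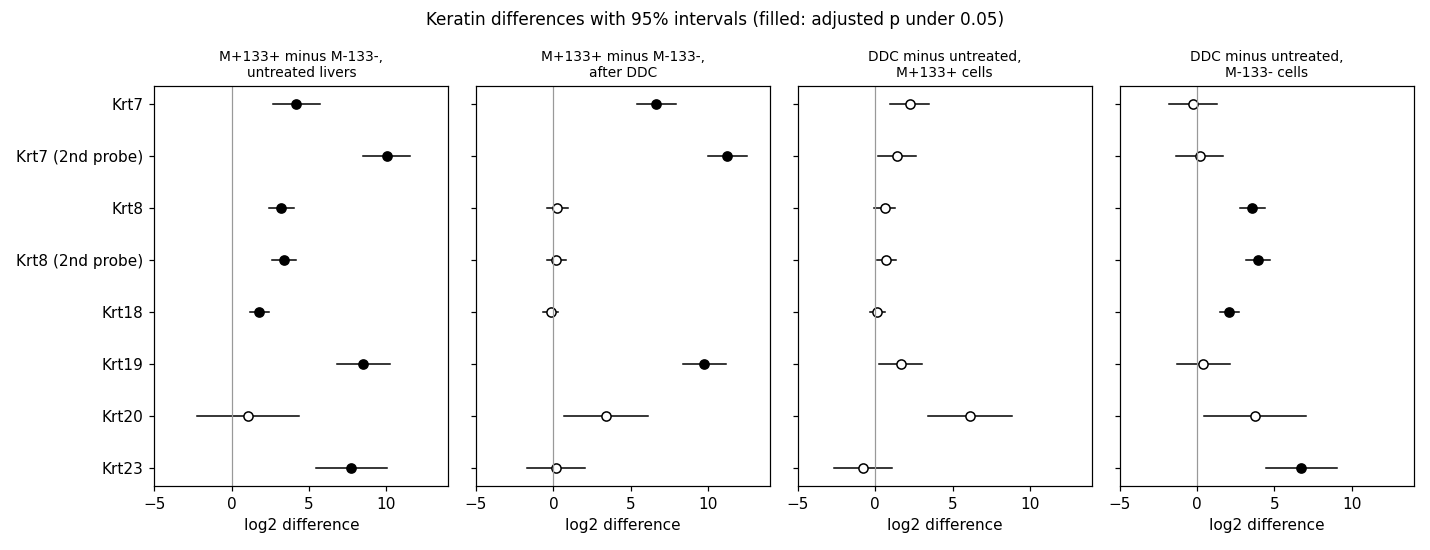
Log2 differences of all 8 keratin probes with 95% intervals in the 4 comparisons between groups, filled where the limma adjusted p was under 0.05. Krt7 and Krt19 differ between sorts with and without DDC, and Krt8, Krt18 and Krt23 differ between sorts in untreated livers and with DDC in M-133- cells.

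In M-133- cells, 3 of the 6 keratins, Krt8, Krt18 and Krt23, rose with DDC (adjusted p under 0.05), against 0.883% of all probes called and 0.506% called higher. The members' median log2 difference was 2.84, against -0.40 over all probes. With each sample a pool of sorted cells, fewer cells of a type and less RNA per cell cannot be told apart in these bulk profiles. The same 3 members had groups that did not overlap, against 20.2% of all probes.

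Krt8 rose by a log2 difference of 3.58 (SE 0.38, limma adjusted p = 0.00029). Its M-133- DDC levels of 5.16 to 6.70 were all above the 2 M-133- untreated levels of 2.58 and 2.36. The second Krt8 probe rose by 3.93 (SE 0.36, limma adjusted p = 7.7e-05). Within the slides that held both groups, the main probe's difference was 3.58 and 4.23.

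Krt18 rose by 2.10 (SE 0.28, limma adjusted p = 0.0021), a 4.29-fold change, and within slides by 1.99 and 2.11. Its lowest M-133- DDC sample, 5.86, was above the higher M-133- untreated sample, 4.52. The call was lost without the intensity trend (limma adjusted p = 0.0971).

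Krt23 rose by 6.74 (SE 1.07, limma adjusted p = 0.0070). Within slides the difference was 4.99 and 8.51, and it followed the spread of the 2 untreated samples. Without M-133- untreated sample 2 it was 4.46 and missed the threshold (limma adjusted p = 0.0650).

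The authors' deposited table gave the same direction for all 3 genes in M-133- cells, with DDC over untreated folds of 12.2 for Krt8, 4.88 for Krt18 and 166 for Krt23. The false discovery rates in the authors' deposited table were 4.51%, 11.3% and 8.63% in that order, so Krt18 and Krt23 lay above 5% there. The second Krt8 probe had 14.3-fold and 3.32% in the authors' deposited table.

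The duct pair was not called in this comparison. Krt19 had a log2 difference of 0.41 (95% interval with ends at -1.30 and 2.12, limma adjusted p = 0.90), and the direction differed between slides, with 2.53 on one and -0.07 on the other. Krt7 had a difference of -0.24 (95% interval with ends at -1.78 and 1.29, limma adjusted p = 0.93). Its second probe, not well above background on any M-133- DDC array, gave no measure of a direction. Krt20 had 3.76 (SE 1.55, limma adjusted p = 0.32), with M-133- DDC sample 3, at -4.94, within the untreated range.

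Bile duct markers moved in the same samples. Of 8 markers, 3 were called higher in M-133- DDC than in M-133- untreated cells: Spp1 (osteopontin) by a log2 difference of 8.81, Tspan8 (a tetraspanin) by 7.40 and Sox9 (a duct and progenitor transcription factor) by 3.36, with limma adjusted p-values of 7.7e-05, 0.00061 and 0.0221. Spp1 and Tspan8 were each well above background on 2 of 3 M-133- untreated arrays, so the sizes of their differences are poorly fixed. In M-133- untreated samples 1 and 2, Spp1 was at -6.24 and -2.73 and Tspan8 at -4.11 and -6.14. The log2 of the summed signal of all 8 markers was 3.95 to 6.17 in M-133- DDC cells and 0.13 to 1.38 in M-133- untreated cells. In the M+133+ groups it was 7.43 to 8.96 after DDC and 7.47 to 7.75 untreated. Epcam, the epithelial adhesion molecule, was not called with DDC in M-133- cells (1.98, limma adjusted p = 0.24). After DDC, Epcam was 8.98 higher in M+133+ than in M-133- cells (limma adjusted p = 4.6e-07). The part of these marker differences in the rise of Krt8, Krt18 and Krt23 was not tested.

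Other cell types also differed. None of 9 hepatocyte markers was called in M-133- cells with DDC, and their summed level was 7.95 to 8.75 after DDC and 8.34 to 9.60 untreated. Of 7 stellate cell markers 2 were called higher, Rgs5 and Ngfr, and the summed level was 6.61 to 7.61 after DDC and 4.62 to 4.99 untreated. None of 8 endothelial markers was called, with a summed level of 3.80 to 6.69 after DDC and 8.24 to 9.01 untreated. Their part in the keratin differences was not tested.

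Within the M-133- DDC samples, the keratins and the duct markers did not follow one order. Sample 3 had the highest Krt8 (6.70), Krt23 (4.92) and Sox9 (4.25), but the lowest Spp1 (3.14) and Tspan8 (0.69). Sample 2 had the lowest Krt8 (5.16), Krt18 (5.86), Krt23 (1.13) and Sox9 (1.03). Its Spp1 (3.32) and Tspan8 (0.81) were close to those of sample 3.

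**Figure D3:**
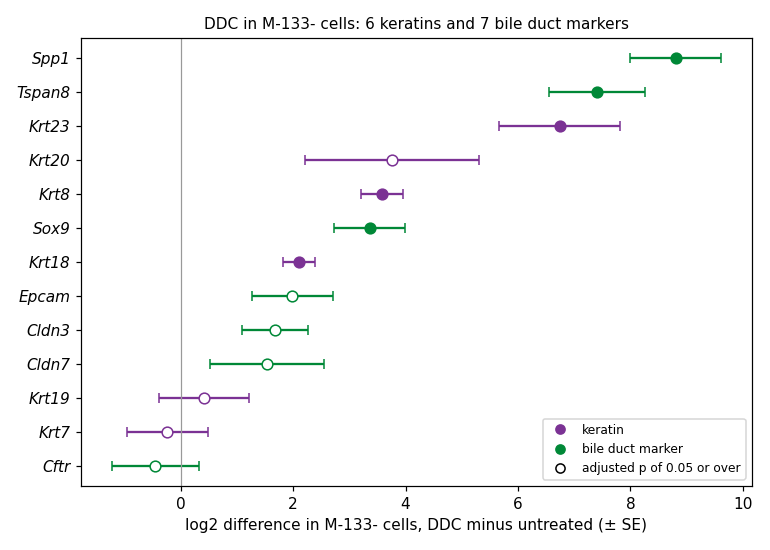
Log2 differences with SE between M-133- DDC and M-133- untreated cells for the 6 keratins (purple) and 7 of the 8 bile duct markers (green), filled where the limma adjusted p was under 0.05. Krt8, Krt18 and Krt23 lie among the called genes with Spp1, Tspan8 and Sox9, and Krt7 and Krt19 lie near 0 with Cftr.

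In M+133+ cells, 0 of the 6 keratins were called with DDC by limma after adjustment, in a comparison where 0.176% of all probes were called. At an unadjusted p under 0.05, 3 of the 6 passed, Krt7, Krt19 and Krt20, against 11.9% of all probes. By the probe that stands for each gene, the groups did not overlap for 4 members, against 7.9% of all probes.

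Krt20 showed the widest difference. Its levels were 2.54, 0.91, 2.30 and 2.00 in M+133+ DDC cells, against -5.94, -0.64, -5.10 and -4.99 in M+133+ untreated cells. All DDC samples were above every untreated one, with a log2 difference of 6.11 (SE 1.27, limma adjusted p = 0.0667). Within slides it was 4.60 and 7.15.

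The Krt20 call depended on the setting. It passed with normexp background correction (4.83, limma adjusted p = 0.0355), with quantile normalization (6.36, limma adjusted p = 0.0375), without M+133+ untreated sample 2 (7.29, limma adjusted p = 0.0195) and without M-133- DDC sample 3 (6.11, limma adjusted p = 0.0438). In the authors' deposited table the Krt20 fold was 103 with a false discovery rate of 3.96%.

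Krt7 had a log2 difference of 2.23 (SE 0.59, limma adjusted p = 0.16), with levels of 2.61 to 4.98 in M+133+ DDC cells and 0.81 to 2.32 in M+133+ untreated cells. The second Krt7 probe gave 1.42. Krt19 had 1.64 (SE 0.65, limma adjusted p = 0.33), with levels of 5.01 to 7.37 in M+133+ DDC cells and 3.52 to 4.89 in M+133+ untreated cells. For both genes the DDC samples were above all untreated ones, yet neither passed across all probes.

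Krt8 had 0.62 (95% interval with ends at -0.04 and 1.28). By a narrow margin its main probe did not overlap either, with 5.77 to 7.04 in M+133+ DDC cells and 5.63 to 5.75 in M+133+ untreated cells. The second Krt8 probe gave 0.72 and did overlap, with levels of 5.58 to 6.86 and 5.04 to 5.75 in the same groups. Krt18 had 0.14 and Krt23 -0.79, and both overlapped. On these scaled levels, M+133+ DDC sample 1 was the highest of its group for Krt7, Krt8, Krt18, Krt19 and Krt20 and the lowest for Krt23. The 75th percentile of its array was 904.8, against 1946.0 to 2347.9 in the rest of its group. Before scaling to that percentile, its intensity was the highest of its group for none of these genes. It was the lowest for Krt8, Krt18 and Krt23.

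The DDC effect differed between the sorts for 3 of the 6 keratins in the interaction term, which is the DDC difference in M+133+ cells minus that in M-133- cells, against 0.218% of all probes called and 0.148% called lower. The term was -2.96 for Krt8 (SE 0.49, limma adjusted p = 0.0243), -1.96 for Krt18 (SE 0.37, limma adjusted p = 0.0417) and -7.53 for Krt23 (SE 1.39, limma adjusted p = 0.0382). These calls were near the threshold: none of the 3 was kept with slide as a fixed block or without the intensity trend, and none without M+133+ untreated sample 1, 2, 3 or 4, M-133- untreated sample 2 or M+133+ DDC sample 4. The second Krt8 probe, at -3.21, had a limma adjusted p of 0.0083 and kept its call in each leave-one-out fit, at limma adjusted p-values up to 0.0430. It lost the call with slide as a fixed block (-3.59, limma adjusted p = 0.131) and without the intensity trend (limma adjusted p = 0.133). In the same term 2 of 8 bile duct markers and 1 of 7 stellate cell markers were called lower, with list medians of -1.34 and -4.82 against 0.44 over all probes, and their part in the keratin terms was not tested.

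The balance of the Krt8 and Krt18 signals was then set within each sample. Because the probes differ, the difference of their levels has no meaning at 0, and only its change between groups is read. It was 0.13 ± 0.21 in M+133+ DDC cells, -0.30 ± 0.42 in M-133- DDC cells and -0.34 ± 0.18 in M+133+ untreated cells (SD, n = 4 each), and -1.77 ± 0.24 in M-133- untreated cells (SD, n = 2). M-133- untreated cells stood below the other 3 groups without overlap. The value of M-133- untreated sample 2 was the mean of repeat arrays that differed. Krt8 was at 1.70 on one and 3.01 on the other, and Krt18 at 4.03 and 3.89 in the same order. The SD of the samples does not hold this difference between arrays.

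Krt8 was higher relative to Krt18 by 1.48 in M-133- DDC than in M-133- untreated cells, and by 1.43 in M+133+ than in M-133- untreated cells. Both had an exact permutation p of 0.0667, the smallest that 4 samples against 2 can give. In M+133+ cells the change with DDC was 0.47 (exact permutation p = 0.0286), and the sort difference after DDC was 0.42 (exact permutation p = 0.143). After adjustment over the 4 comparisons the two-sided exact permutation values were 0.0889, 0.0889, 0.0889 and 0.143, so none passed 0.05.

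**Figure D4:**
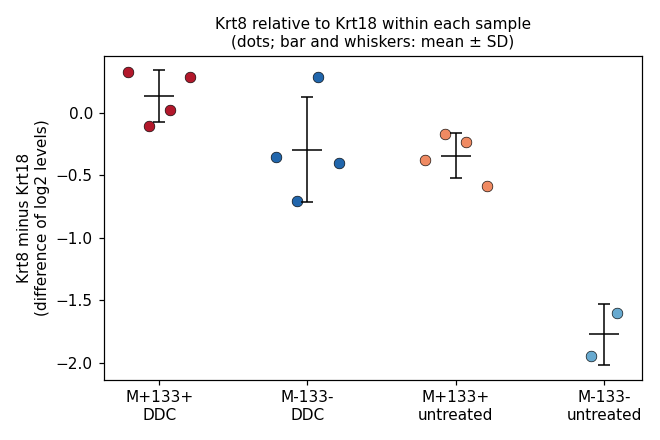
Difference of the Krt8 and Krt18 log2 levels within each sample (dots) with mean and SD, by group. The M-133- untreated samples, at -1.95 and -1.60, lie below all 12 others.

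Over the 14 samples the members formed 2 sets by Pearson correlation, given as a description because the samples share the 4 groups. Krt7 and Krt19 correlated at 0.97, and Krt8 and Krt18 at 0.96. Krt23 correlated with Krt8 at 0.86 and with Krt18 at 0.85, whereas Krt20 stayed between 0.23 and 0.51 with every other member.

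Among 17068 named genes, the profiles most like Krt19 over the 14 samples were Dmbt1 (a mucosal scavenger receptor-like protein), Fxyd3 (a regulator of the sodium pump) and Clic6 (a chloride channel family member), at r of 0.991, 0.989 and 0.988. Those most like Krt7 were Spink4, Esrp1 (an epithelial splicing regulator) and Tmem45b, each at 0.98. Cp (ceruloplasmin, the copper-carrying ferroxidase) was first for both Krt8, at 0.967, and Krt18, at 0.952. S100a11 and Sprr1a followed for Krt8 at 0.959 and 0.957, and Fgfr2 and Eps8 for Krt18 at 0.936 and 0.933.

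Nck2 (an adaptor protein that links receptors to actin) was most like Krt23, at 0.981, before Smim22 and Bex1 at 0.952 and 0.930. Krt20 had the least close matches, Vcam1 (an adhesion molecule), H4c1 (a histone gene) and Oasl1 (an interferon-induced gene) at 0.884, 0.869 and 0.865.

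The other keratins of the array, mostly those of stratified epithelia and hair, were for the most part not called. Of 36 tested, 3 were higher and 1 lower in M+133+ than in M-133- untreated cells, and 4 were higher after DDC, with medians of -0.06 and 0.58 beside -0.08 and 0.34 over all probes. Krt13 was higher by 5.39 untreated and 4.73 after DDC, and Krt17 by 4.37 and 4.29. Krt80 was not well above background on any M-133- array and was at least 7.31-fold higher in M+133+ cells of untreated livers and at least 28.5-fold higher after DDC (limma adjusted p = 0.0138 and 0.00017). Krt15 was also called higher after DDC, with 1 of 4 M-133- DDC arrays well above background. Krt82, a hair keratin, was called lower in M+133+ untreated cells, where no array was well above background, against 1 of 3 arrays of M-133- untreated cells. None of the 36 was called with DDC in either sort or in the interaction.

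Among proteins that anchor keratin filaments at desmosomes and hemidesmosomes, of 13 tested, 7 were higher in M+133+ than in M-133- untreated cells and 8 after DDC, with the other 6 and 5 not called. Their median log2 differences were 3.50 and 3.12, against -0.08 and 0.34 over all probes. The plakin Evpl led, at 7.25 untreated and 6.35 after DDC. In untreated livers the desmosomal cadherins Dsg2 and Dsc2 were higher by 6.30 and 5.93 and the plakin Ppl by 4.30, and after DDC Pkp3 (a desmosomal plaque protein), Itgb4 and Itga6 (the hemidesmosomal integrin chains) were higher by 5.74, 4.60 and 3.98. With DDC, Dsg2 alone rose in M-133- cells, by 3.63 (SE 0.67, limma adjusted p = 0.0186), and 0 of 13 were called in M+133+ cells.

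Among 13 other intermediate filament genes, none was called between sorts in untreated livers. After DDC, M+133+ cells had less Vim (vimentin) and Des (desmin) signal than M-133- cells, with log2 differences of -5.44 and -5.61; these are filaments of mesenchymal and muscle-like cells. Nefh, a neurofilament gene, was higher by 3.43. Des rose with DDC in M-133- cells by 5.51 (limma adjusted p = 0.0165), in the same samples in which the stellate markers Rgs5 and Ngfr were higher.

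Of 8 genes for proteins found in or around Mallory-Denk bodies, 3 were higher in M+133+ than in M-133- untreated cells, the small heat shock proteins Hspb1 and Cryab by 4.62 and 3.66 and Hspa1a by 3.12. After DDC, Hspb1 and Cryab were higher by 3.07 and 3.43. The other 5 genes untreated and 6 after DDC were not called. The list's median log2 differences were 0.96 and -0.08, against -0.08 and 0.34 over all probes. With DDC in M-133- cells, Hspa1a alone rose, by 3.86 (SE 0.75, limma adjusted p = 0.0247), and its near-identical neighbour Hspa1b cannot be told apart from it with certainty. Sqstm1, the p62 protein of these bodies, had a difference of -0.32 in M-133- cells with DDC (limma adjusted p = 0.75).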

How the data were processed

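RNA of sorted cells was amplified and labelled with Cy3, per the labels' protocols, and hybridised to 1-colour Agilent arrays. The deposited intensity values are the scanner's processed signals, background-subtracted by Agilent Feature Extraction 10.5.1.1, per the file headers. The authors' deposited table gives, for each comparison, 2 scores, a signed linear fold and a false discovery rate in percent. Per the submitters' processing notes limma was used, and the steps behind that table are not given in the sources used here.

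Each array's log2 intensity was computed and its 75th percentile subtracted, and repeat spots and then repeat arrays of 1 sample were averaged (correlation of the repeat arrays 0.894 and 0.810). Probes well above background in at least 0.5 of the samples of 1 group were kept, 35781 in all. limma 3.58.1 (R 4.3.3) fitted 4 group means over 14 samples with an intensity trend, and p-values were adjusted by Benjamini-Hochberg over all kept probes; the fit was tested on simulated data. Gene symbols came from the files, updated through RefSeq tables by accession where these matched. The brightest kept probe stood for a gene; the mean difference of all probes and other settings were tried as alternatives.

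The genes named are the members with all probes, Prom1, the 3 genes most like each member, up to 4 called genes with the largest difference from each list and comparison, and markers that bear on a result. Members and lists were chosen with earlier results of these data known. The number of arrays limits the precision. The values of 1 bile duct marker are not reported here.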

Additional observations from a re-analysis of the deposited data

Results flagged for a closer look

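The DDC effect differed between the sorts by the interaction test for 3 keratins. The term was -2.96 for Krt8 (-3.21 on its second probe), -1.96 for Krt18 and -7.53 for Krt23, with limma adjusted p-values of 0.0243 (0.0083 on the second probe), 0.0417 and 0.0382. With slide as a fixed block all of these calls were lost, with limma adjusted p-values of 0.124 for Krt8 (0.131 on the second probe), 0.146 for Krt18 and 0.0898 for Krt23.

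Krt23 in M+133+ untreated sample 4, at a level of 4.49, lay apart from the other 3 samples, with a gap of 0.890 of the group's range, above the critical value of 0.829 for 4 samples. Of 24 such groups of 4 samples tested, this was the only one past that value, and chance gives about 1 in 20.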

How the results depend on the processing

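Of 1100 recomputed differences of single members, 1044 stayed on their side of the threshold, 50 lost a call, 46 of them in the interaction, 6 gained one and 0 called ones turned sign. The calls of Krt7, Krt8, Krt19 and Krt23 between sorts in untreated livers, of Krt7 and Krt19 after DDC, and of Krt8 with DDC in M-133- cells, held under every alternative run. For Krt20, 0 members called with DDC in M+133+ cells became 1 with normexp background correction and 1 with quantile normalization, and 0 to 1 when a single sample was left out. The 3 members called in the interaction became 1 with array medians, 0 without the intensity trend, 0 with slide as a fixed block, and 0 to 3 when a single sample was left out. Correlations of samples with the same replicate number, or the same number in their titles, lay between -0.13 and 0.10 and showed no pairing. After DDC both sorts carry title numbers 5, 6, 7 and 8. They shared no slide, so low correlations cannot exclude a pairing there. In untreated livers both sorts carry title numbers 1 and 1B. M-133- untreated cells had only 2 samples, whose deviations from their mean mirror each other. Low correlations cannot exclude a pairing there either. With replicate number as a block, 1 member was called in the interaction. Probes called with DDC in M+133+ cells, with DDC in M-133- cells and in the interaction were then 8, 144 and 30, against 63, 316 and 78 without it. With title number as a random block, 3 members were called in the interaction, and 59, 308 and 104 probes in these comparisons. Over all probes, the number called with DDC in M+133+ cells was 99 with normexp, 138 with quantile normalization, 38 with array medians, 111 with the stricter probe filter, 32 without the intensity trend, 13 with slide as a fixed block, and 7 to 119 when a single sample was left out. With slide as a fixed block it was 1504 between sorts after DDC, against 4215 without it, 193 with DDC in M-133- cells and 15 in the interaction. The interaction gave 50 with normexp, 42 without the trend and 28 to 184 when a single sample was left out. Leaving out a single sample gave 1052 to 2961 between sorts in untreated livers, against 2757 with all samples, with the fewest without M-133- untreated sample 1, and 122 to 380 with DDC in M-133- cells. In fits that leave 1 sample of M-133- untreated cells, that sample is assumed to vary like the other groups. The cause of these shifts was not tested.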
